A study of Pimephales promelas with 270 samples.

Results

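Fathead minnow (Pimephales promelas) larvae labelled 5 days post fertilization were sampled for mRNA sequencing after 24 h in a high dose of propranolol (3.3 mg/l), in a low dose (0.66 mg/l), or as controls. Each group held 10 libraries, so that 30 of the 266 libraries of the series were used. They were taken by their labels, and this set was chosen with earlier results of these data known. The high-dose libraries are numbered 31 to 44 in the labels, the low-dose libraries 16 to 29 and the controls 1 to 14, with gaps (1, 2, 4, 5, 7, 8 and so on). The series crosses 3 ages (4, 5 and 6 days) with 3 durations (6, 24 and 48 h) and 3 doses, and each pair of age and duration is called a set here. The treatment text attached to the samples concerns ethinyl estradiol, whereas the series title, its design text and each dose label name propranolol or its doses, which were followed here. The labels do not say if the stated age is that before or after exposure. They also do not tie libraries to vessels or clutches, and the p-values therefore reflect variation among these libraries, part of which may be technical. The protocols describe freezing of larvae and no dissection, and in such bulk samples fewer cells of a type and less RNA per cell cannot be told apart.

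Propranolol blocks beta-adrenergic receptors, the G protein-coupled receptors through which adrenaline and noradrenaline speed the heart and raise cyclic AMP in many tissues. Because it does not discriminate between the main beta receptor subtypes, it acts on heart, vessels and metabolism in vertebrates, and fish carry related receptors. The transcripts in the table bear bare identifiers and 0 of 34856 matched the RefSeq gene table, so neither a gene name, a role nor a sequence is given for any of them, and the receptor pathway could not be looked up.

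Library totals ran from 12.1 to 17.9 M counts at the high dose, from 14.1 to 18.8 M at the low dose and from 10.6 to 19.0 M in the controls. Of the 135 pairs of libraries within a group, 0 agreed within counting noise (lowest chi-square over its degrees of freedom 5.25). High-dose library 43 and control libraries 7 and 10 stood apart, since their median correlation with their own group lay more than 3 scaled median absolute deviations below that of all 30 libraries. Results that change without these 3 libraries are given with and without them.

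After 24 h both doses raised a small number of transcripts and lowered none that passed the test. At the high dose, 24 of 30183 transcripts rose (0.0795% of those tested) and 0 fell, by the quasi-likelihood test of edgeR at a false discovery rate of 0.05. At the low dose 20 rose (0.0663%) and 0 fell. The 24 high-dose rises had a median log2 fold change of 1.00 and ran from 0.39 to 2.43, and 12 of them exceeded 2-fold. The 20 low-dose rises had a median of 1.12 and ran from 0.42 to 2.56, with 11 above 2-fold. Over all transcripts tested the median log2 fold change was -0.01 at the high dose and 0.00 at the low dose.

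At an unadjusted p under 0.05, 1057 transcripts (3.5%) were higher and 772 (2.56%) lower at the high dose than in controls, and 1420 (4.7%) were higher and 1404 (4.65%) lower at the low dose. That threshold admits 2.5% in each direction where no transcript differs. The smallest adjusted p of a fall was 0.13 at the high dose and 0.065 at the low dose (edgeR). With limma-voom 0 falls passed at either dose, and with DESeq2 4 passed at the high dose and 10 at the low dose. DESeq2 also called more rises, 69 at the high dose and 53 at the low dose, and these contained all 24 and all 20 of the edgeR calls. Without the 3 libraries that stood apart, 13 transcripts rose at the high dose, 12 of them among the 24, and 15 rose and 2 fell at the low dose. When libraries with adjacent numbers were summed, which left 5 sums a group, 4 transcripts rose at the high dose and 6 at the low dose, each among the calls already made.

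The transcripts that rose covered a wide range of abundance. In controls the 24 high-dose calls ran from 0.477 to 76.5 CPM (counts scaled to a common library size by the TMM method) with a median of 7.77 CPM, and over all tested transcripts the median was 7.40 CPM. The identifiers of 6 of the 24 and of 6 of the 20 lay within 3 numbers of another called transcript, FMt042851 and FMt042853 among them. How reads shared by such transcripts were assigned is not given, so these cannot be counted as separate responses.

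The transcript with the smallest p at the high dose was FMt045902. It stood at 113 to 573 CPM in the high-dose libraries (median 212), at 54.8 to 105 CPM in the low-dose libraries (median 79.2) and at 60.1 to 100.4 CPM in controls (median 75.1). The lowest high-dose library, number 40, was above every low-dose and every control library, while low-dose and control libraries covered the same range. The mean was 260 ± 146 CPM at the high dose, 82.0 ± 14.9 CPM at the low dose and 76.5 ± 13.6 CPM in controls (SD, n = 10 each). Its log2 fold change against control was 1.77 ± 0.21 at the high dose (SE, edgeR adjusted p = 8.2e-05), and 0.10 ± 0.21 at the low dose (SE, adjusted p = 0.90). The spread among the high-dose libraries was wide: libraries 31 and 32 held 424 and 573 CPM, whereas libraries 35, 37 and 40 held 157, 155 and 113 CPM. Summing adjacent libraries left the log2 fold change at 1.77 but lost the call (adjusted p = 0.074).

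FMt016413 was measured at a much lower level and also passed at the high dose. It stood at 1.23 to 4.34 CPM in the high-dose libraries (median 2.59), at 0.521 to 1.53 CPM in the low-dose libraries (median 0.868) and at 0.262 to 1.37 CPM in controls (median 0.871). The lowest high-dose library, number 37, fell inside the range of the other groups, and the remaining 9 lay above them. The log2 fold change was 1.60 ± 0.23 at the high dose (SE, edgeR adjusted p = 0.00029) and 0.13 ± 0.24 at the low dose (adjusted p = 0.88).

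Other transcripts passed at both doses. FMt042851 stood at 0.641 to 4.15 CPM in the high-dose libraries (median 3.17), at 1.49 to 4.14 CPM in the low-dose libraries (median 3.07) and at 0.189 to 0.920 CPM in controls (median 0.316). All low-dose libraries were above all controls, and high-dose library 31 was the one exposed library inside the control range. The log2 fold change was 2.43 ± 0.32 at the high dose (SE, edgeR adjusted p = 0.00016) and 2.56 ± 0.32 at the low dose (adjusted p = 9.8e-05). The control libraries held as few as 2 counts of it. Summing adjacent libraries lost both calls, with log2 fold changes of 2.45 (adjusted p = 0.091) and 2.56 (adjusted p = 0.11).

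FMt007700 rose by less but with little spread. It stood at 9.27 to 15.3 CPM in the high-dose libraries (median 10.5), at 7.78 to 14.5 CPM in the low-dose libraries (median 10.6) and at 4.49 to 6.87 CPM in controls (median 6.46). Every exposed library of either dose was above every control. The log2 fold change was 0.83 ± 0.12 at the high dose (SE, edgeR adjusted p = 0.00032) and 0.84 ± 0.12 at the low dose (adjusted p = 0.00060), and both calls held under all 39 alternatives run for each of them. These alternatives draw on the same control group, whose mean was 6.19 CPM, the lowest control mean of the 9 sets. In the other sets, each scaled on its own, control means ran from 8.93 CPM (5 days, 48 h) to 17.1 CPM (6 days, 48 h). The exposed means here were 11.0 CPM at the high and 11.1 CPM at the low dose. Whether these controls were low or the exposed larvae raised was not tested.

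**Figure D1:**
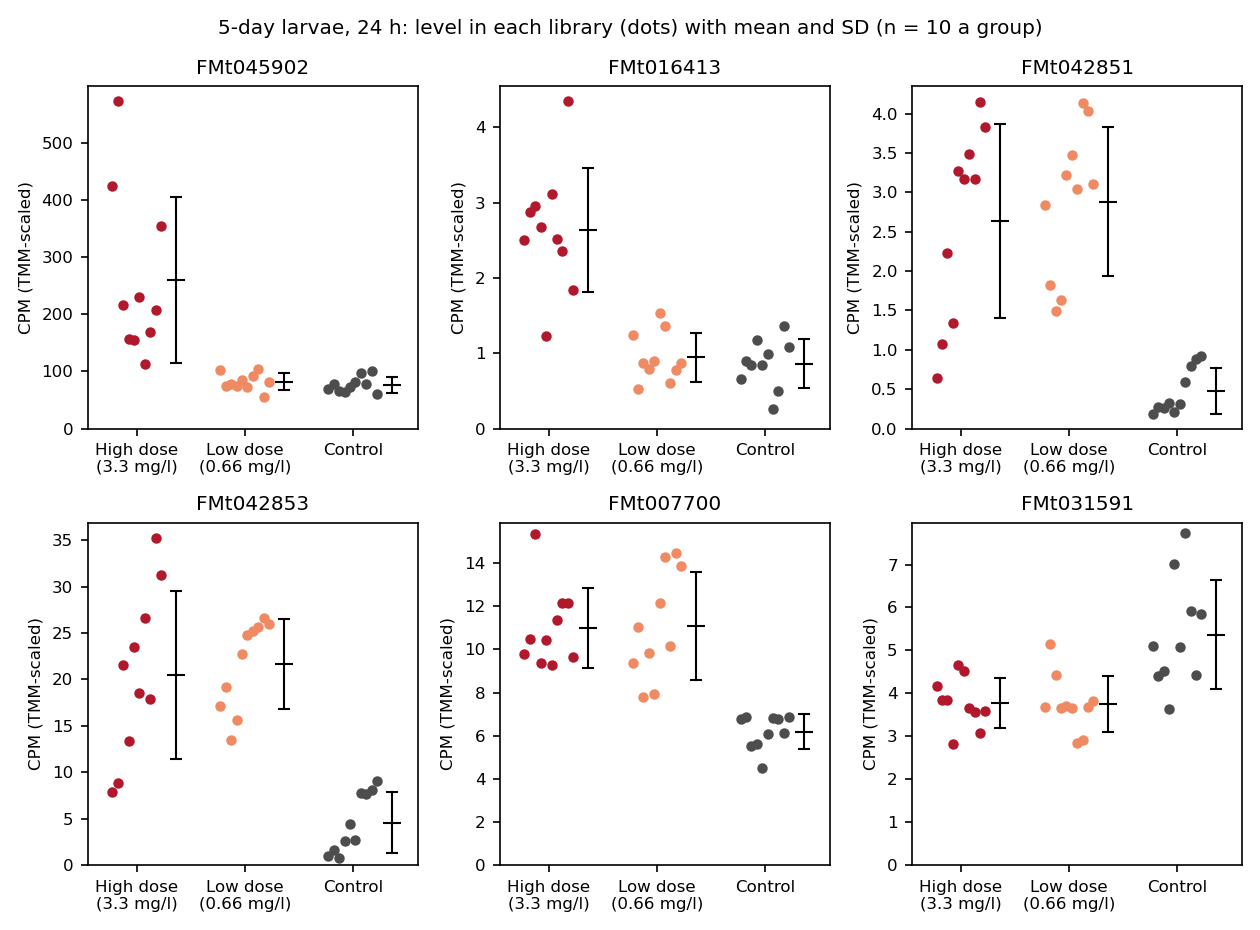
Level of 6 transcripts in each library of the 5-day, 24 h set, in TMM-scaled CPM on a linear axis, for high-dose, low-dose and control larvae; dots are single libraries in the order of their numbers, and bars give the mean and SD of 10 libraries. FMt045902 and FMt016413 are high at the high dose, FMt042851, FMt042853 and FMt007700 are high at both doses, and FMt031591, which fell in the mean of both doses, has overlapping groups.

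Few transcripts separated exposed from control larvae completely. At the high dose every library lay above every control for 8 transcripts (0.0265% of those tested), 7 of them among the 24 calls, and below every control for 1. At the low dose this held for 6 transcripts (0.0199%), all among the 20 calls, and below for 0.

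Taking both doses together against control, 30 transcripts rose (0.0994%) and 1 fell (0.00331%) by the same edgeR test. The 1 that fell was FMt031591. It stood at 2.81 to 4.67 CPM in the high-dose libraries (median 3.74), at 2.85 to 5.14 CPM in the low-dose libraries (median 3.67) and at 3.63 to 7.73 CPM in controls (median 5.09), so the groups overlapped. For the mean of both doses its log2 change was -0.51 ± 0.11 (SE), with an edgeR adjusted p = 0.049. This call was marginal, since it was lost in 24 of the 30 fits that each left out 1 library, with adjusted p up to 0.16, and without the 3 libraries that stood apart (log2 fold change -0.35, adjusted p = 0.42). The 31 calls for both doses became 19 without control library 4 and likewise 19 without control library 7.

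The direct comparison of the doses, in which the controls enter the scaling, the filter and the estimate of spread but not the contrast, found 2 transcripts higher at the high than at the low dose (0.00663%) and 0 lower. These were FMt045902, with a log2 difference of 1.66 ± 0.21 (SE, edgeR adjusted p = 0.00026), and FMt016413, with 1.47 ± 0.22 (adjusted p = 0.0027). FMt016413 is outside the rule for printed identifiers and was chosen after its values were seen. FMt045902 was also the 1 transcript of all tested (0.00331%) for which every high-dose library was above every low-dose library. At an unadjusted p under 0.05, 688 transcripts (2.28%) were higher and 1016 (3.37%) lower at the high than at the low dose. That threshold admits 2.5% in each direction where no transcript differs. The count of lower transcripts was 0 with limma-voom and 4 with DESeq2, and without the 3 libraries that stood apart edgeR called 6 higher and 3 lower. With only the 2 groups compared, 2 were higher and 1 lower. With sums of adjacent libraries, 1 was higher and 1 lower: FMt016413 kept its call (adjusted p = 0.042), and FMt045902 lost it at an unchanged log2 difference of 1.66 (adjusted p = 0.22).

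For the transcripts that rose at both doses no difference between the doses passed the test. The log2 difference of high minus low dose was -0.13 for FMt042851 (95% interval -0.69 to 0.43) and -0.01 for FMt007700 (95% interval -0.25 to 0.22). These intervals do not show that the doses act alike. The effects at the 2 doses share their control libraries, so their likeness was not tested.

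Over the 24 high-dose calls the log2 difference of high minus low dose ran from -0.27 to 1.66 and was above 0 for 16. It lay within 0.3 of 0 for 14, and 2 of the 24 passed (11 at an unadjusted p under 0.05). The median absolute difference over all transcripts tested was 0.105. Over the 20 low-dose calls the difference ran from -0.57 to 0.23 and was below 0 for 17, and 0 of the 20 passed (4 at an unadjusted p under 0.05). Each list was chosen on one of the 2 doses, so the sign of these differences is partly fixed by that choice.

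**Figure D2:**
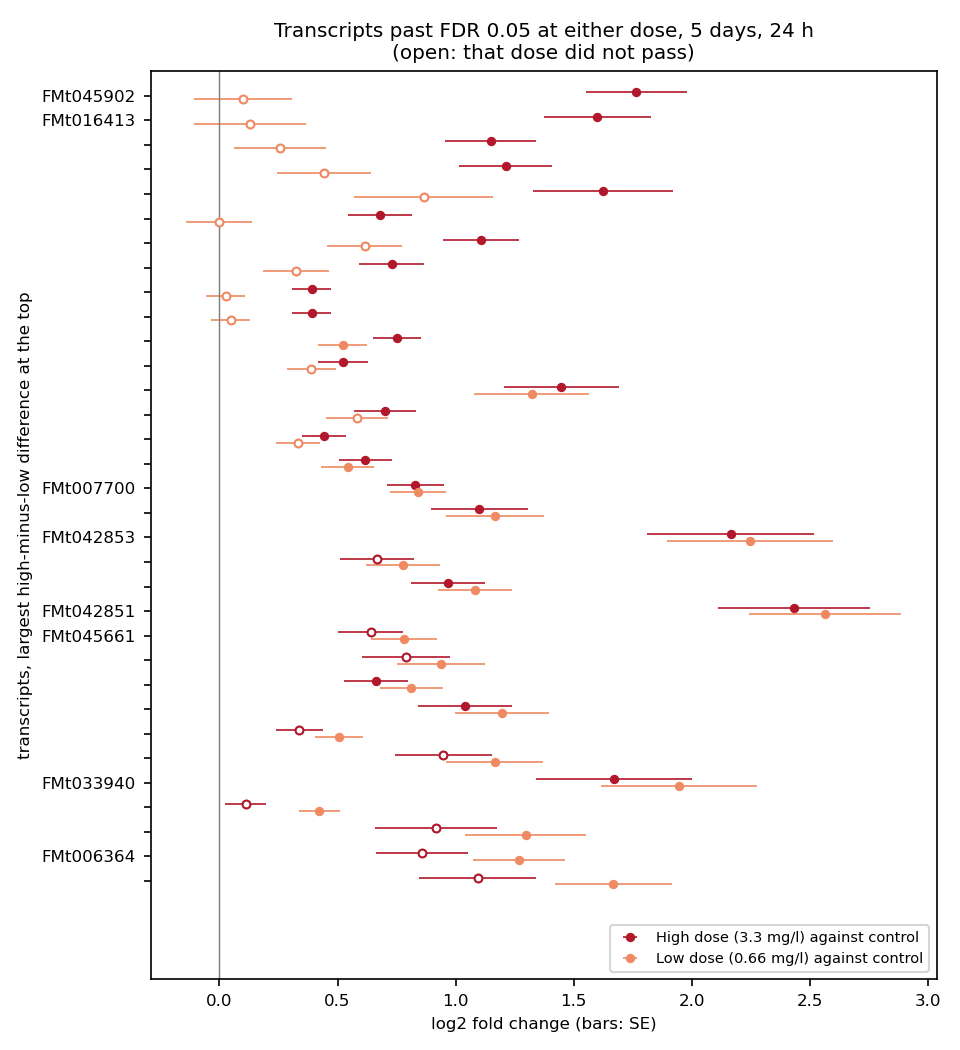
Log2 fold change against control, with its SE, of every transcript that passed at either dose in the 5-day, 24 h set, ordered by the high-minus-low difference, for the high and the low dose; open symbols mark a dose that did not pass. FMt045902 and FMt016413 have the widest gap between the doses (1.66 and 1.47), while for FMt042851 and FMt007700 it is -0.13 and -0.01; the doses share their controls.

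Some of the transcripts that rose also varied among libraries of the same group along the numbers in the labels. A slope on the place of a library in its group's numbering (1 to 10), fitted beside the 3 dose groups, passed for 5 of 30183 transcripts (0.0166%, edgeR, false discovery rate 0.05), all 5 with higher levels at higher numbers. This slope was added after the values of single libraries had been seen. The 5 were FMt042853, FMt042851, FMt033940, FMt006364 and FMt045661, and they are printed because of this count and were chosen after their values were seen. All 5 were among the 20 transcripts that rose at the low dose, and 3 were among the 24 that rose at the high dose. What the numbers stand for (an order of sampling, of extraction or of a plate) is not stated.

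FMt042853 shows the pattern. In the high-dose group the first 6 libraries by number held 7.89 to 23.5 CPM and the last 4 held 17.8 to 35.2 CPM. In the low-dose group the first 6 held 13.5 to 24.8 CPM and the last 4 held 25.2 to 26.7 CPM. In the controls the first 6 held 0.743 to 4.42 CPM and the last 4 held 7.63 to 9.03 CPM. The low-dose libraries were above every control at any number, while high-dose library 31 and library 32 lay within the range of the last 4 controls. The slope was 0.20 ± 0.03 log2 units per place (SE, edgeR adjusted p = 0.0037), which is 1.83 log2 units from the first to the last library of a group.

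The dose effect on FMt042853 was of the same order as this spread, at a log2 fold change of 2.16 ± 0.35 at the high dose (SE, edgeR adjusted p = 0.0030) and 2.25 ± 0.35 at the low dose (adjusted p = 0.0029). With the place as a covariate it was 2.31 ± 0.23 at the high dose (adjusted p = 5.4e-07) and 2.49 ± 0.23 at the low dose (adjusted p = 1.2e-07). FMt042853 was chosen for its slope in these same libraries, so the smaller SE is favoured by that choice. The place restarts at 1 in each group, so this covariate does not remove the difference in label numbers between groups. Dose and label number cannot be told apart here. With sums of adjacent libraries both calls of FMt042853 were lost (adjusted p = 0.30 for the high dose and 0.39 for the low dose). Over all 39 alternatives its high-dose call was lost in 2 and its low-dose call in 1. FMt033940 stood at 3.44 to 22.5 CPM in the high-dose libraries (median 10.8), at 6.74 to 22.3 CPM in the low-dose libraries (median 12.7) and at 0.613 to 5.80 CPM in controls (median 2.64). Low-dose libraries were all above the controls, and high-dose libraries 31 and 32 were not. At the high dose it rose by 1.67 ± 0.33 on the log2 scale (SE, edgeR adjusted p = 0.031). This call was lost in 8 of the 30 fits without 1 library, among them that without high-dose library 43 (1.48, adjusted p = 0.067). It was also lost without the 3 libraries that stood apart (1.59, adjusted p = 0.13). Over all 39 alternatives it was lost in 11, with adjusted p up to 0.46. At the low dose FMt033940 rose by 1.94 ± 0.33 (SE, edgeR adjusted p = 0.0068), a call lost in 1 of 39 alternatives (adjusted p = 0.46).

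FMt045661 stood at 30.9 to 59.7 CPM in the high-dose libraries (median 42.0), at 37.4 to 61.5 CPM in the low-dose libraries (median 46.9) and at 19.3 to 37.4 CPM in controls (median 27.8). At the low dose its log2 rise was 0.78 ± 0.14 (SE, edgeR adjusted p = 0.0071), and its 0.64 ± 0.14 at the high dose did not pass (adjusted p = 0.062). FMt006364 stood at 7.61 to 17.8 CPM in the high-dose libraries (median 11.4), at 9.37 to 25.4 CPM in the low-dose libraries (median 14.0) and at 3.56 to 9.56 CPM in controls (median 5.92). It rose at the low dose by 1.27 ± 0.20 (SE, adjusted p = 0.0015), and its 0.86 ± 0.20 at the high dose did not pass (adjusted p = 0.092). Once the place in the numbering was a covariate, both passed at the high dose (adjusted p = 6.2e-05 for FMt045661 and 0.00016 for FMt006364). Both were chosen for their slope in these same libraries, so a smaller spread and passing with this covariate are favoured by that choice. With sums of adjacent libraries both stayed uncalled at the high dose (adjusted p = 0.44 and 0.46), and both low-dose calls were lost, at 0.79 for FMt045661 (adjusted p = 0.39) and 1.27 for FMt006364 (adjusted p = 0.25). The slopes of FMt045902 (-0.03 per place, adjusted p = 1.00), FMt016413 (0.01) and FMt007700 (0.03) did not pass.

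**Figure D3:**
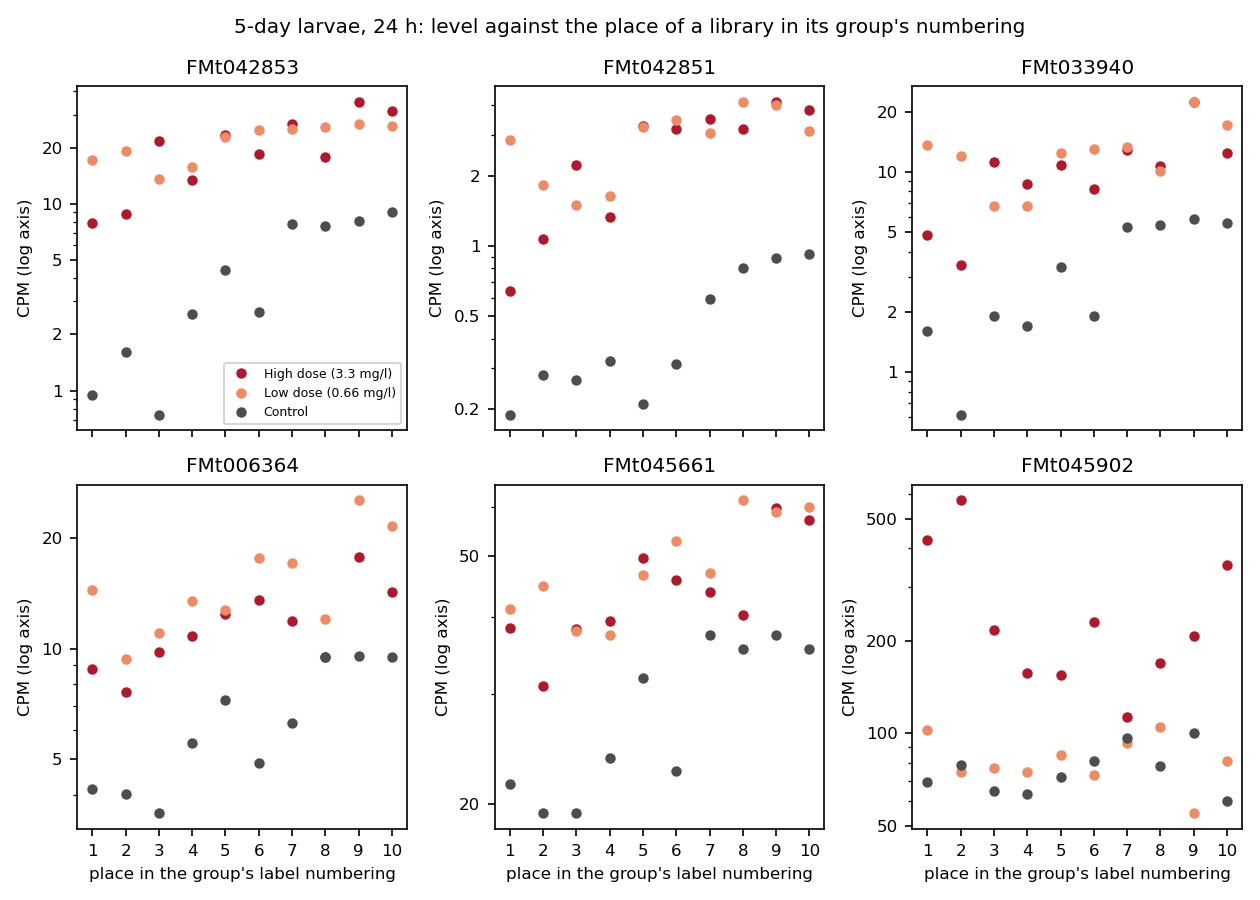
Level of 6 transcripts, in TMM-scaled CPM on a log axis, against the place of a library in its group's label numbering, for high-dose, low-dose and control larvae of the 5-day, 24 h set; each dot is 1 library. In FMt042853, FMt042851, FMt033940 and FMt045661 the last 4 controls lie above the first 6, as for FMt042853 with 7.63 to 9.03 against 0.743 to 4.42 CPM, in FMt006364 they overlap (6.29 to 9.56 against 3.56 to 7.23 CPM), while the controls of FMt045902 stay between 60.1 and 100.4 CPM.

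The same slope was fitted over the other 8 sets, whose 236 libraries share none with the 5-day, 24 h set. There 3 of 33736 transcripts passed (0.00889%), and 2 of them were among the 5: FMt042853, with 0.11 ± 0.01 log2 units per place (SE, edgeR adjusted p = 3.9e-08), and FMt033940, with 0.07 ± 0.01 (adjusted p = 0.0040). The slope of FMt042853 was above 0 in each of the 9 sets fitted alone, from 0.07 to 0.26 per place. In none of the other 8 sets did any transcript pass in the set's own fit, and in the 5-day, 24 h set 876 transcripts (2.90%) had an unadjusted p under 0.05 for the slope.

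The transcripts called at the high dose were then followed in the other sets, each fitted with its own controls. FMt045902 had the largest rise over all sets in an earlier analysis of these data and was followed for that reason too. Its rises in the other sets are therefore not independent of its choice. FMt045902 rose at the high dose in every set of 24 or 48 h, with log2 changes of 1.25 ± 0.20 in the 4-day, 24 h set (SE, edgeR adjusted p = 0.021), 2.39 ± 0.24 in the 6-day, 24 h set (adjusted p = 1.3e-06) and 2.32 ± 0.18 in the 5-day, 48 h set (adjusted p = 9.0e-10). After 6 h at 5 days it was 0.10 ± 0.12 (adjusted p = 1.00). FMt016413 likewise rose by 2.35 ± 0.30 in the 5-day, 48 h set (SE, edgeR adjusted p = 8.9e-06) and by 2.23 ± 0.28 in the 6-day, 24 h set (adjusted p = 3.1e-05), and its 1.30 ± 0.32 in the 4-day, 24 h set did not pass (adjusted p = 0.31).

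Of the 24 high-dose calls, 2 (8.33%) also rose in the 4-day, 24 h set, where they were 66.7% of the 3 rises in that set (0.0102% of transcripts tested there). In the 6-day, 24 h set 5 of the 24 rose (20.8%, against 0.586% of all transcripts), which is 2.87% of that set's 174 rises. At 48 h, 11 of the 24 rose at 4 days (45.8%, against 0.854%), 12 at 5 days (50%, against 0.947%) and 13 at 6 days (54.2%, against 2.48%). After 6 h, 23 of the 24 were tested at each age, and 0 rose by the edgeR test, where 0% of all transcripts rose. At an unadjusted p under 0.05, 0 of the 23 were higher and 2 lower at 4 days, where 5.72% of all transcripts were higher. At 5 days 3 were higher and 1 lower (1.88% of all higher), and at 6 days 3 were higher and 1 lower (2.49% of all higher).

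The 20 low-dose calls did not pass as rises at the low dose in the other sets. In the low-dose comparison of the other 8 sets 0 of the 20 rose by the edgeR test, against 0% of all transcripts in 6 of those sets, 0.00661% in the 6-day, 48 h set and 2.76% in the 6-day, 24 h set. Where 0% of all transcripts rose, this count cannot tell the 20 from the rest. At an unadjusted p under 0.05, 5 of the 20 were higher in the 5-day, 48 h set (3.88% of all transcripts), 2 in the 4-day, 48 h set (1.37% of all) and 0 in the other 6 sets. At the same threshold 9 were lower in the 6-day, 24 h set, 2 in each of the 5-day and 6-day sets of 6 h, where 19 were tested, 1 in the 4-day, 24 h set and 0 in the remaining 4. In the 6-day, 24 h set 7 of the 20 fell, where 3.17% of all transcripts fell, and the median log2 fold change of the 20 was -0.45, against 0.01 for all transcripts.

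**Figure D4:**
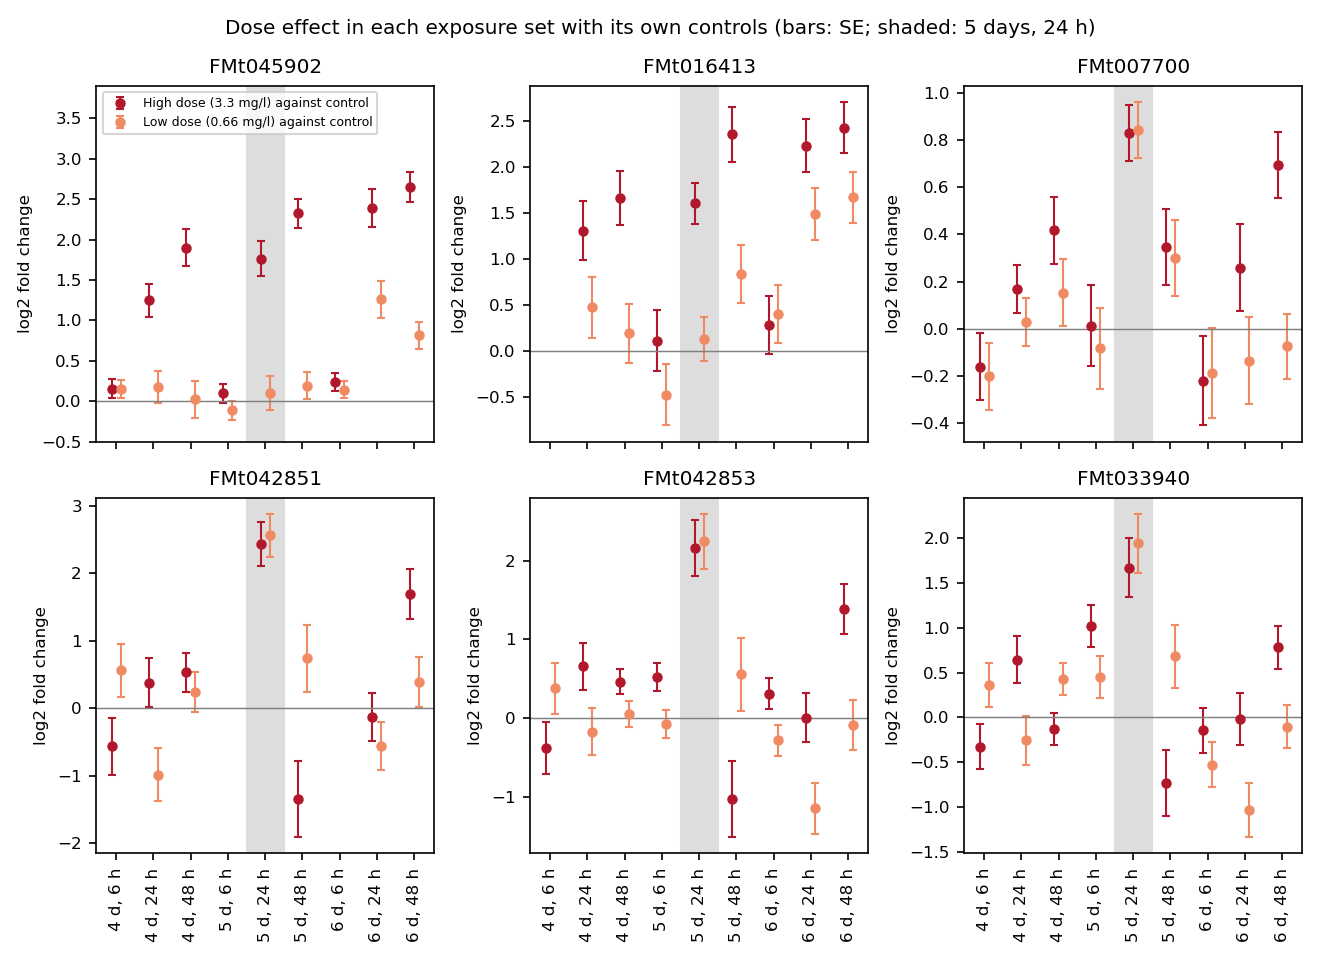
Log2 fold change against the set's own controls, with its SE, of 6 transcripts in the 9 sets of age and duration, for the high and the low dose; the 5-day, 24 h set is shaded, and a missing point is a transcript left out by the filter on low counts. FMt045902 and FMt016413 are also high at the high dose in the other sets of 24 and 48 h. At the low dose FMt016413 passed in the 6-day sets of 24 h (1.48, edgeR adjusted p = 0.0039) and 48 h (1.66, adjusted p = 0.016). FMt045902 passed at the low dose in the 6-day, 24 h set (1.26, adjusted p = 0.0031) and not in the 6-day, 48 h set (0.81, adjusted p = 0.26). FMt042851, FMt042853 and FMt033940 are highest in the 5-day, 24 h set and lie below 0 at the high dose of the 5-day, 48 h set (-1.35, -1.03 and -0.74, none passing). At the high dose of the 6-day, 48 h set FMt042851 (1.69, edgeR adjusted p = 0.0047), FMt042853 (1.39, adjusted p = 0.011) and FMt007700 (0.69, adjusted p = 0.0024) passed. FMt033940 did not pass there (0.78, adjusted p = 0.063).

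Whether the effect at 5 days and 24 h differed from that of a neighbouring set was tested directly, as the 5-day, 24 h effect minus the other effect, over 33034 transcripts and 148 libraries. For the high dose the difference passed for 5 transcripts against the 5-day, 6 h set (0.0151%), 12 against the 5-day, 48 h set (0.0363%) and 6 against the 6-day, 24 h set (0.0182%). Against the 4-day, 24 h set it passed for 0 (0%) with edgeR and with limma-voom, and 1500 (4.54%) had an unadjusted p under 0.05. Where no transcript differs, that threshold admits 2.5% in each direction. For the low dose it passed for 4 against the 5-day, 6 h set (0.0121%), 17 against the 4-day, 24 h set (0.0515%) and 224 against the 6-day, 24 h set (0.678%). Against the 5-day, 48 h set it passed for 0 (0%) with both tools, and 1033 (3.13%) had an unadjusted p under 0.05.

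Called transcripts were among these differences. Of the 24 high-dose calls, 6 had a larger effect at 24 than at 48 h in 5-day larvae and 2 a larger one than at 6 h. Against the 6-day, 24 h set 1 had a larger and 1 a smaller effect, and against the 4-day, 24 h set 0 differed. Of the 20 low-dose calls, 4 had a larger effect than in the 5-day, 6 h set, 9 than in the 4-day, 24 h set and 17 than in the 6-day, 24 h set. Since the calls were made on one side of these differences, positive values are favoured by that choice. FMt042853 shows the levels behind them: in the 5-day, 48 h set it averaged 6.35 ± 4.61 CPM at the high dose, 18.8 ± 2.39 CPM at the low dose and 12.8 ± 10.9 CPM in controls (SD, n = 10 each), and its controls ran from 1.59 to 33.6 CPM. In the 5-day, 24 h set the means were 20.5 ± 9.05 CPM at the high dose, 21.7 ± 4.86 CPM at the low dose and 4.55 ± 3.28 CPM in controls (SD, n = 10 each). The difference of its high-dose effects was 3.20 ± 0.49 (SE, edgeR adjusted p = 3.6e-05).

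For FMt045902 the high-dose effect was larger at 24 h than at 6 h in 5-day larvae, by 1.66 ± 0.27 (SE, edgeR adjusted p = 0.00035), a call that was lost with sums of adjacent libraries, where 0 transcripts passed this difference. The difference from the 48 h effect, at -0.55 ± 0.27, did not pass (adjusted p = 1.00), nor did those from the 4-day set (0.51 ± 0.27, adjusted p = 0.99) and the 6-day set (-0.63 ± 0.27, adjusted p = 0.82) at 24 h. At the low dose its effect was smaller than in the 6-day, 24 h set, by -1.16 ± 0.27 (SE, edgeR adjusted p = 0.017). Low-dose larvae averaged 82.0 ± 14.9 CPM at 5 days (SD, n = 10) and 290 ± 171 CPM at 6 days (SD, n = 9). Those 9 libraries ran from 116 to 623 CPM. Controls averaged 76.5 ± 13.6 CPM at 5 days and 121 ± 17.3 CPM at 6 days (SD, n = 10 each).

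The developmental stage of the larvae was compared with an age index. It is the mean log2 CPM of 200 transcripts higher in 6-day than in 4-day controls minus that of 200 lower ones. In each direction these had the smallest edgeR p among transcripts with a mean log2 CPM of at least 3. No library of the 5-day, 24 h set entered that comparison of controls. The index was -0.31 ± 0.36 at the high dose, -0.59 ± 0.67 at the low dose and -0.50 ± 0.30 in controls (SD, n = 10 each). In controls 1 day of age corresponds to 1.91 units, measured in the same 4-day and 6-day controls that chose the transcripts. That choice favours a large value. The high-dose mean was 0.18 above the controls (permutation test, two-sided, p = 0.23, adjusted over 3 comparisons 0.42), the low-dose mean 0.09 below them (p = 0.71) and the high-dose mean 0.27 above the low-dose mean (p = 0.28, adjusted 0.42). None of the 3 differences exceeded the spread between libraries. Low-dose library 28 had the lowest index of the 30, at -1.93. With the index as a covariate 32 transcripts rose at the high dose, 22 of them among the 24, and 20 at the low dose, the same 20.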

How the data were processed

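Counts per transcript in larvae were used as the authors deposited them, whole numbers without normalization. Per the labels' protocols, frozen larvae were lysed and the Lexogen SENSE mRNA-Seq kit V2 was used for library preparation. The series' design text says that reads were aligned to known mRNA transcripts of the species. The submitters' processing notes name bcl2fastq 2.19.1, limma 3.40.6 and edgeR 3.26.8 without a role. No aligner, counting rule or build is named, as these were not given in the sources used here. Among listed transcripts the lowest total was 166 counts, so rarer transcripts may have been left out before deposit. Of 270 labelled samples, 4 of other sets are not analysed here.

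The 30 libraries were fitted together in edgeR 4.0.16 (R 4.3.3) with TMM scaling, filterByExpr, dispersions estimated from the data and the robust quasi-likelihood test on the dose group, with Benjamini-Hochberg adjustment over all transcripts tested and a threshold of 0.05. The SE is the log2 fold change divided by the square root of F. Differences between sets were fitted on 148 libraries of 5 sets. The age index used log2 CPM (prior count 2) and 100000 permutations in SciPy 1.17.1. Alternatives were RLE factors, no filter, limma-voom (limma 3.58.1), DESeq2 1.42.0, sums of adjacent libraries, each library left out, the libraries that stood apart left out, covariates, and only the groups compared. The scripts were tested on simulated data.

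Identifiers are printed for the 2 transcripts with the smallest p in each direction of a comparison. These were taken among transcripts that passed with a mean log2 CPM of at least 1. FMt045902 is also printed, as it had the largest rise over all sets in an earlier analysis of these data. Transcripts behind counts of 5 or fewer are printed as well, and these were chosen after their values were seen. The set of libraries, the rule and the comparisons were chosen with earlier results of these data known, and the slope on the numbering was added after single libraries had been examined. Groups within the set share no number. The same numbers recur in other sets, but the labels do not say that they mark a shared vessel or day, so the numbers were not used as pairs. Over many transcripts together, the deviations of same-numbered libraries had a median correlation of -0.01 to 0.03 over 4 sets. That value cannot exclude that single transcripts deviate together, and FMt042853 varied with the number in the other sets too.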

Additional observations from a re-analysis of the deposited data

Results flagged for a closer look

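Of the 33 groups of 10 libraries examined for a library far from its own group, 2 held one, and chance alone gives about 1 in 20. High-dose library 34 had 15.3 CPM of FMt007700, where the next highest library of its group had 12.2 CPM. High-dose library 43, 1 of the 3 libraries that stood apart over all transcripts, had 22.5 CPM of FMt033940, where the next highest had 12.8 CPM.

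For the printed transcripts, 72 differences were tested between the dose effect at 5 days and 24 h and that of a neighbouring set. Of these, 16 passed (edgeR, adjusted p under the threshold over all transcripts). Most of these transcripts were printed for their values at 5 days and 24 h, a side of every difference, so passing is favoured by that choice. Over all transcripts, 0% to 0.678% passed in a comparison. At the high dose, the log2 effect of FMt045902 was 1.66 above that at 5 days and 6 h, a difference that did not pass with sums of adjacent libraries. Against 5 days and 48 h the high-dose effect was larger by 2.41 for FMt033940, by 3.79 for FMt042851 and by 3.20 for FMt042853.

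At the low dose, the effect of FMt042851 was larger by 3.17 than at 5 days and 6 h. Against the 4-day, 24 h set it was larger by 1.30 for FMt006364, 2.18 for FMt033940, 3.53 for FMt042851 and 2.40 for FMt042853. Against the 6-day, 24 h set it was larger by 1.08 for FMt006364, 0.98 for FMt007700, 2.98 for FMt033940, 3.12 for FMt042851, 3.39 for FMt042853 and 1.47 for FMt045661, and it differed by -1.16 for FMt045902. Of these 7 transcripts, all but FMt045902 rose at 0.66 mg/l in the 5-day larvae after 24 h, and 5 of the 7 also varied with the place in the numbering. The slope on the numbering passed for 0.0166% of all transcripts tested. It is a reason for printing these 5, so this count is partly fixed by that choice.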

How the results depend on the processing

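With 10 libraries a group and totals of 10.6 to 19.0 M counts, transcripts at a few CPM rest on few counts, such as 2 in a control library of FMt042851. The calls depend on the tool, on the libraries that stood apart and on whether adjacent libraries count singly. The deviations of adjacent libraries from their group mean had a median correlation of -0.08 (15 pairs), against -0.12 for the other 120 pairs within groups. Sums of adjacent libraries also leave 5 units a group in place of 10, and the effect of that was not tested. For the 9 printed transcripts, no direction of a value called in the 5-day, 24 h set reversed under the alternatives run; why the counts moved was not tested.

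With DESeq2 the calls were 73 at the high dose, 63 at the low dose, 90 for the mean of both and 11 for high against low. Sums of adjacent libraries gave 4, 6 and 10 for the first 3 of these. Without the libraries that stood apart they were 13 at the high dose, 17 for the mean of both and 9 for high against low. With only the 2 groups compared, 12 passed at the low dose. Leaving out each library in turn gave 17 to 32 calls at the high dose, 14 to 24 at the low dose, 19 to 34 for the mean of both and 2 to 3 for high against low. RLE factors, no filter, limma-voom and both covariates kept all 4 counts within 1.5 times. The 5 slopes on the numbering stayed 5 with RLE factors, no filter and limma-voom and were 4 without the libraries that stood apart.

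For differences between sets, a replicate block on the shared numbers, which share only a number, gave 3 against 5 days and 6 h and 14 against 6 days and 24 h at the high dose, and 11 against 5 days and 6 h at the low dose. At most 10 of 30 same-numbered pairs correlated above 0.1, and at most 6 of 30 libraries correlated best with their own number. Sums of adjacent libraries gave 0 against 5 days and 6 h at the high dose (1441 of 34724 at an unadjusted p under 0.05), and at the low dose 1 against 5 days and 6 h, 1 against 4 days and 24 h and 90 against 6 days and 24 h. Without the libraries that stood apart in these 5 sets, 3 passed against 5 days and 6 h at the high dose and 431 against 6 days and 24 h at the low dose. With limma-voom 3 passed against 5 days and 6 h and 10 against 6 days and 24 h at the high dose. The 3 age index differences kept their sign and did not pass under any of their 4 alternatives.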
